A study of Mus musculus with 9 samples.

Results

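The 101 genes described here encode the subunits, and several assembly factors, of the respiratory chain and ATP synthase as expressed in BV2 cells, a mouse microglial cell line. They were chosen by name among protein-coding genes. Symbols had to begin with Nduf, Uqcr, Atp5 or Cox4 to Cox8, or be Sdha, Sdhb, Sdhc or Sdhd, or be 1 of the 13 protein-coding genes of mitochondrial DNA. Of 107 such genes, 101 reached 1 TPM, a transcript level scaled to a fixed library total, in at least 3 of the 9 libraries and count as members, out of 11260 genes tested that way and 55906 listed. The members comprise 88 nuclear genes and 13 mitochondrially encoded ones. By complex, the nuclear members divide into 44 for complex I, 4 for complex II, 8 for complex III, 15 for complex IV and 17 for complex V.

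Oxidative phosphorylation runs in the inner mitochondrial membrane. Complexes I and II pass electrons from NADH and succinate to ubiquinone, complex III passes them on to cytochrome c, and complex IV reduces oxygen. The proton gradient built on the way drives ATP synthase, which is complex V. Complex II is wholly nuclear-encoded, whereas the other complexes combine subunits made from nuclear and mitochondrial genes. Activated macrophages and microglia are known for a shift from respiration towards glycolysis, which makes these genes a usual readout in studies of inflammatory activation.

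RNA sequencing covered 9 libraries of wild-type BV2 cells in 3 groups of 3. Control cells had no treatment, LPS cells received the bacterial endotoxin lipopolysaccharide, and LPS+Pilo cells received LPS together with an agent labelled Pilo. The study asked how Pilo modulates the inflammatory response of these cells to LPS. No group received Pilo alone, so a change in LPS+Pilo against Control combines both agents, and neither dose nor duration is stated in the labels. BV2 is a single immortalized line. The titles call the libraries of a group biological replicates without saying how they were grown, so p-values reflect the variation among these libraries of 1 line. TPM relate each transcript's level to the whole library, so sequencing depth is unknown and no counting error can be attached to a value.

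Between 10726 and 11123 genes reached 1 TPM in a library. Of 10 microglial marker genes, 9 were tested, among them Cd68 at 976 to 1219 TPM and Trem2 at 213 to 593 TPM. The homeostatic marker P2ry12 stayed at or below 0.400 TPM, and Aif1, Cx3cr1 and Tmem119 at or below 4.57 TPM. Of 26 markers of neurons, astrocytes, oligodendrocytes, endothelium and fibroblasts, 23 were under 1 TPM in all 9 libraries, 13 of these at 0 throughout, and the exceptions were Tubb3 (164 to 457 TPM), Mbp and Vwf. Libraries of 1 group also differed across all genes. Control replicate 1 was the highest of its group for 7054 of 11260 genes and LPS replicate 3 the lowest of its group for 7466. Among the 88 nuclear members, Control replicate 1 was the lowest of its group for 40 (45.5%), LPS replicate 1 for 45 (51.1%) and LPS+Pilo replicate 2 for 46 (52.3%). Over all genes the same libraries were lowest for 19.9%, 19.6% and 43.2%. The part of these library differences in the results below was not tested beyond the values given with single libraries left out.

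Members were abundant. Their mean over all 9 libraries had a median of 239.8 TPM per gene, and together they took 5.00% to 6.18% of all TPM in a library. The most abundant nuclear members by complex were Ndufb8 (971 TPM), Sdhb (396 TPM), Uqcr10 (1307 TPM), Cox4i1 (3337 TPM) and Atp5b (2578 TPM). The 17 nuclear members of the ATP synthase stood higher than the 36 nuclear subunits of complex I, with a median of 511 against 186 TPM per gene, and the 8 complex I assembly factors Ndufaf1 to Ndufaf8 were lower still, with a median of 16.3 TPM. The lowest members were Cox4i2 (3.44 TPM), the ATP synthase coupling factor gene Atp5s (3.46 TPM) and the assembly factor gene Ndufaf4 (3.74 TPM). Well under the threshold lay Ndufa4l2, a hypoxia-linked paralog of Ndufa4, at 0.150 TPM or less, and a duplicate entry named Atp5o at 0.360 TPM or less. The tissue-restricted isoforms Cox6b2, Cox7b2, Cox8b and Cox8c were listed at 0 in every library.

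Nuclear respiratory genes are known to share promoter elements for the factors NRF1, ETS-family factors such as GABP, and YY1. The RefSeq promoter table (build GRCm38.p6, 250 bases before to 50 after each gene's start) held 73 of the 88 nuclear members, and both strands were searched for fixed letters. The letters GCGCATG, part of the NRF1 palindrome, stood in the promoters of 15 of 73 members, among them Sdhb, Uqcrc1, Cox6a1 and Atp5g2, which is 20.5% of them against 4.41% of the genes in the table. The ETS letters CCGGAAG stood in 18 (24.7% against 9.93%) and the YY1 letters AAGATGG in 12 (16.4% against 7.28%). The E-box CACGTG, searched as a further element, was in 6 (8.22% against 8.09%). The shares for comparison cover all 27025 genes in the promoter table, expressed or not, whereas members had to pass the TPM threshold. Whether expressed genes in general hold these letters more often was not tested. These are matches of letters, not evidence of binding. The 250 bases upstream of 2 members called lower in LPS+Pilo than in Control show how such elements sit, with the match in capitals.
Atp5g2, minus strand of chr15:102671048-102671297, NRF1 letters in capitals, matched on both strands with overlap: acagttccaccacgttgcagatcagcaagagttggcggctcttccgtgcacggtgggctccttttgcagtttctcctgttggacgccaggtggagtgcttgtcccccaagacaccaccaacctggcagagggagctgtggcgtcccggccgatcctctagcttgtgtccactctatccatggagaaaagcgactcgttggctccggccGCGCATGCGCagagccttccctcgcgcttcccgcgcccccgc
Ndufaf8, plus strand of chr11:120098684-120098933, ETS letters in capitals: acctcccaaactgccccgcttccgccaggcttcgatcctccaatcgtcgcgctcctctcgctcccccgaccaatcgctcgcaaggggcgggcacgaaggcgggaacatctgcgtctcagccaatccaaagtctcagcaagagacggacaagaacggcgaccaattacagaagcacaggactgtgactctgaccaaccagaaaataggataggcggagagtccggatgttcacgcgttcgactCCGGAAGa
Among the 7 members called in that comparison, Atp5g2 held the NRF1 letters, Ndufaf8 the ETS and YY1 letters and Atp5j2 the YY1 letters. Ndufb10, Ndufv2 and Ndufv3 held none of the letters searched. Cox6a2 was not among the matched promoters.

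In LPS against Control, respiratory genes were mostly slightly lower, and few differences passed the test for a single gene. Ndufv3, an accessory subunit of the NADH-oxidizing module of complex I, and Ndufaf8, a complex I assembly factor, fell. No member rose. The log2 difference was below 0 for 85 of 101 members and for 41.1% of all genes tested, and its median was -0.11 for members and 0.07 for all genes. These values are differences of log2(TPM + 1) between group means. Members called lower numbered 2 of 101, where 3.64% of all genes were called lower, and members called higher 0, where 4.12% were (limma, two-sided, Benjamini-Hochberg adjusted p under 0.05 over all genes; 7.76% in either direction). At an unadjusted p under 0.05, 18 members were lower and 0 higher, against 10.4% and 12.3% of all genes. The LPS libraries all lay below the Control libraries for 24 members (13.1% of all genes) and all above them for 1, Ndufa1 (11.2%). Cells with less RNA of a kind and fewer cells of a kind cannot be told apart in bulk libraries, and TPM cannot tell a fall of these genes from a rise of others.

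The lean to lower values ran through every complex. In LPS against Control, it held for 39 of 44 nuclear complex I members (median -0.12), 4 of 4 of complex II (-0.17), 5 of 8 of complex III (-0.05), 13 of 15 of complex IV (-0.09), 16 of 17 of complex V (-0.15) and 8 of 13 mitochondrially encoded members (-0.08). Within complex I, 6 of 7 nuclear core subunits were below 0 (median -0.20), 27 of 29 accessory subunits (-0.12) and 6 of 8 Ndufaf assembly factors (-0.02). Without LPS replicate 1 the count below 0 was 69 of 101 (median -0.09, and 0.04 for all genes). Without Control replicate 1 it was 75 (median -0.15, and 0.13 for all genes). Over the settings, the share of all genes below 0 ran from 34.4% to 51.3%. The median over all members stayed below 0 in all 18 alternative settings, between -0.18 and -0.09. Single classes moved more. Without LPS replicate 1 the median was -0.03 for complex IV and 0.04 for mitochondrial members. For the latter, omission of Control replicate 1 or 2 gave -0.15 or -0.02, and omission of LPS replicate 2 or 3 gave -0.23 or -0.19. The complex III median became -0.11 with Control replicate 1 omitted, and -0.10 or -0.13 with LPS replicate 2 or 3 omitted.

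**Figure D1:**
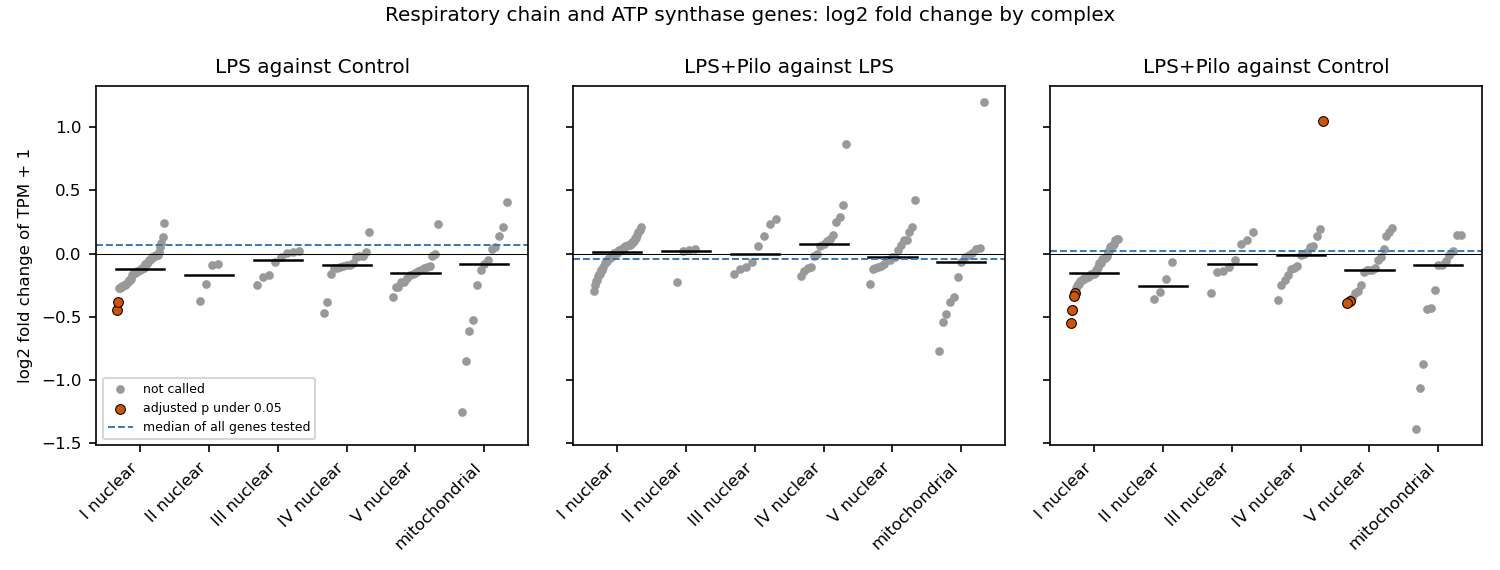
Log2 fold change of log2(TPM + 1) for each of the 101 members (points), by complex and genome of origin, in the 3 comparisons of group means (3 libraries per group). Short black bars are the medians of each class, the dashed line is the median of all 11260 genes tested, and filled orange points are members with an adjusted p under 0.05. In LPS against Control the points lie mostly below the dashed line at 0.07, and in LPS+Pilo against LPS no point is filled.

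In LPS+Pilo against Control, 6 members fell and 1 rose. The falls were in complex I (Ndufv2, Ndufaf8, Ndufv3 and Ndufb10) and in the membrane part of ATP synthase (Atp5g2 and Atp5j2), and the rise was in Cox6a2, the muscle isoform of a complex IV subunit. The 6 of 101 members called lower were near the 5.3% of all genes called lower. The 1 called higher compares with 4.85%, and both directions together with 10.2%. Differences were below 0 for 75 of 101 members and 47.1% of all genes, with medians of -0.12 and 0.02. At an unadjusted p under 0.05, 19 members were lower (12.3% of all genes) and 1 higher (11.6%). LPS+Pilo libraries all lay below Control libraries for 24 members (15.6% of all genes) and all above for 4 (14.9%), namely Cox6a2, Uqcr10, mt-Nd4 and the assembly factor gene Ndufaf5. By complex, the counts below 0 were 34 of 44 for nuclear complex I (median -0.15), 4 of 4 for complex II (-0.25), 5 of 8 for complex III (-0.08), 9 of 15 for complex IV (-0.01), 13 of 17 for complex V (-0.13) and 10 of 13 for mitochondrial members (-0.09). This comparison shares its Control libraries with the one before. Class medians again rested on few libraries. The mitochondrial median was -0.29 without LPS+Pilo replicate 2, -0.24 without Control replicate 3 and -0.14 without LPS+Pilo replicate 3. For complex V it was -0.08 without Control replicate 1 and -0.20 without Control replicate 2, and for complex III -0.04 without Control replicate 1 and -0.02 without LPS+Pilo replicate 2. The complex IV median, near 0, ran down to -0.07 (without LPS+Pilo replicate 1), and each of the 6 Control and LPS+Pilo libraries moved it by over 1.5 times when left out. The median over members ranged from -0.15 to -0.10 over the alternatives, and the count below 0 was lowest, at 69, without LPS+Pilo replicate 2. For all genes, the median ran from -0.04 to 0.09 over the settings and the share below 0 from 39.0% to 55.7%.

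Adding Pilo to LPS changed no member past the threshold, where 0.0444% of all genes (5 of 11260) were called in LPS+Pilo against LPS by limma, 0.00888% in the higher and 0.0355% in the lower direction. With no adjustment and p under 0.05, 6 members were higher and 2 lower (3.04% and 3.72% of all genes). The 2 groups of libraries did not overlap for 7 members that were higher (5.58%) and 3 that were lower (6.63%). The median was 0.00 for members and -0.05 for all genes, and 49 of 101 members were below 0 against 60.3% of all genes. Among members with no overlap, the largest rises were in Cox6a2 (0.87 ± 0.22, adjusted p = 0.407), Cox8a (0.29 ± 0.12, 0.691) and Cox6a1 (0.25 ± 0.08, 0.540), all complex IV subunits. The largest falls were in Ndufv2 (-0.30 ± 0.10, 0.560), the ATP synthase proteolipid gene Atp5mpl (-0.24 ± 0.10, 0.707) and the complex III subunit gene Uqcrb (-0.16 ± 0.10, 0.841). No member was called in this comparison under any of the 18 alternatives.

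The core of complex I that takes electrons from NADH is built from Ndufv1, which binds NADH and flavin, and the iron-sulfur proteins Ndufv2 and Ndufs1, with Ndufv3 as an accessory subunit. Ndufv2 stood at 89.8, 84.0 and 86.9 TPM in Control, 71.6, 71.8 and 75.2 TPM in LPS and 69.0, 53.5 and 55.9 TPM in LPS+Pilo. Each LPS library lay below each Control library, and each LPS+Pilo library below each LPS library. The fall in LPS+Pilo against Control was -0.55 ± 0.10 on the log2 scale (SE, n = 3 per group; limma adjusted p = 0.00845), whereas LPS against Control gave -0.25 ± 0.10 (adjusted p = 0.180). It was the single member called in that comparison whose call held in all 18 alternatives, with adjusted p from 0.00340 to 0.0412.

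Ndufv3 stood at 336, 308 and 339 TPM in Control, 265, 239 and 249.6 TPM in LPS and 245, 271 and 263 TPM in LPS+Pilo. Both treated groups lay wholly below Control and overlapped each other. The differences from Control were -0.38 ± 0.08 in LPS (adjusted p = 0.0179) and -0.33 ± 0.08 in LPS+Pilo (adjusted p = 0.0256). Its partner in the module Ndufv1, at 139 ± 3.21 TPM in Control (mean ± SD, n = 3), was 121 ± 2.77 TPM in LPS and 132 ± 5.93 TPM in LPS+Pilo, and no comparison passed (adjusted p = 0.131 for LPS against Control). Ndufs1, the largest core subunit, was at 31.2 ± 7.92, 32.1 ± 5.07 and 27.4 ± 3.53 TPM in the same order, and the groups overlapped.

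Ndufb10 encodes an accessory subunit of the proton-pumping membrane arm. Its level was 313, 321 and 328 TPM in Control, 260.1, 262 and 274 TPM in LPS and 255, 243 and 279 TPM in LPS+Pilo, with both treated groups below Control. LPS+Pilo against Control passed (-0.31 ± 0.07, adjusted p = 0.0276), and LPS against Control did not (-0.27 ± 0.07, adjusted p = 0.0572; 0.0339 after quantile normalization). The difference between these 2 outcomes is that of LPS+Pilo against LPS, -0.04 ± 0.07 (adjusted p = 0.960). Ndufaf8, whose product acts with the assembly factor Ndufaf5, stood at 58.1, 67.9 and 57.3 TPM in Control, 44.8, 44.1 and 44.5 TPM in LPS and 44.2, 40.5 and 49.0 TPM in LPS+Pilo. The LPS libraries were within 1 TPM of each other, and every treated library lay below every Control library. It fell by 0.44 in LPS (SE 0.10, adjusted p = 0.0271) and by 0.45 in LPS+Pilo (adjusted p = 0.0217). The 7 other Ndufaf genes had no call, with log2 differences of -0.21 to 0.13 in LPS against Control. Ndufa1, a small membrane-arm subunit, was the one member whose LPS libraries all lay above Control, at 68.3, 76.5 and 70.0 against 53.5, 66.6 and 61.7 TPM (0.24 ± 0.14, adjusted p = 0.350).

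Calls on these genes depended on single libraries and on the scaling. In LPS against Control, Ndufv3 lost its call when Control replicate 3 was left out (adjusted p = 0.0878) or LPS replicate 2 (0.0855), and Ndufaf8 without Control replicate 2 (0.0975) or 3 (0.0645) or LPS replicate 1 (0.0749) or 2 (0.0951). In LPS+Pilo against Control, Ndufv3 lost it without Control replicate 1 (0.0621) or 3 (0.108) or LPS+Pilo replicate 1 (0.0943), 2 (0.0527) or 3 (0.0734). Ndufaf8 lost it without Control replicate 2 (0.0735) or LPS+Pilo replicate 1 (0.0698) or 2 (0.0864), and Ndufb10 without Control replicate 2 (0.0779) or 3 (0.110), LPS replicate 2 (0.0522) or LPS+Pilo replicate 1 (0.0867) or 2 (0.106). In that comparison, median-ratio scaling ended the calls of Ndufv3 (0.0765), Ndufaf8 (0.0609) and Ndufb10 (0.127). Fitting the 2 groups alone ended Ndufb10 there (0.0586) and Ndufaf8 in LPS against Control (0.0560).

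**Figure D2:**
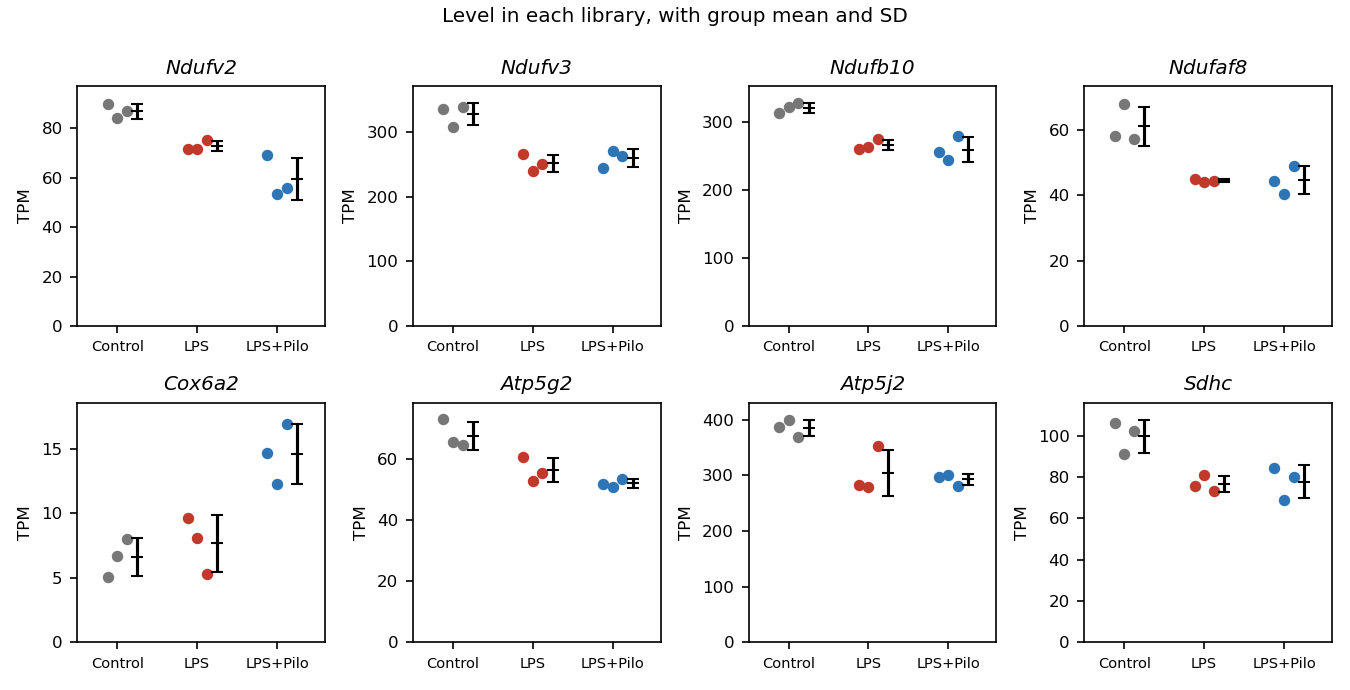
TPM in each of the 9 libraries (points) with the group mean and SD (bar beside the points, n = 3) for the 7 members called in LPS+Pilo against Control and for Sdhc, which just missed. Every axis starts at 0. Ndufv2 steps down from Control through LPS to LPS+Pilo, Ndufv3, Ndufaf8 and Sdhc lie lower in both treated groups, and Cox6a2 is higher in the 3 LPS+Pilo libraries.

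Complex II oxidizes succinate in the citric acid cycle, with Sdha as the flavoprotein, Sdhb as the iron-sulfur protein and Sdhc and Sdhd as membrane anchors. Sdhc stood at 106, 90.8 and 102 TPM in Control, 75.7, 80.7 and 73.3 TPM in LPS and 84.5, 68.7 and 80.1 TPM in LPS+Pilo. Both treated groups lay wholly below Control, yet neither difference passed, at -0.37 ± 0.10 in LPS (adjusted p = 0.0552) and -0.36 ± 0.10 in LPS+Pilo (0.0556). The LPS difference passed after median-ratio scaling (0.0149), after quantile normalization (0.0190) and without LPS+Pilo replicate 2 (0.0462), and the LPS+Pilo difference passed after both rescalings (0.0255 and 0.0249). Sdhb was also lower in every treated library, at 438 ± 14.2 TPM in Control against 371 ± 23.2 TPM with LPS and 381 ± 28.2 TPM with LPS+Pilo (mean ± SD, n = 3), without passing (adjusted p = 0.116 and 0.164). Sdha (100.3 ± 17.6, 94.5 ± 12.2 and 80.7 ± 11.4 TPM) and Sdhd (231 ± 10.1, 218 ± 23.2 and 222 ± 24.7 TPM) overlapped between all groups.

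No nuclear member of complex III was called in any comparison by limma. At an unadjusted p under 0.05, 1 of 8 was lower in LPS and 1 in LPS+Pilo against Control, and 0 in LPS+Pilo against LPS. The shares of all genes lower at that cut were 10.4%, 12.3% and 3.72%. Uqcrc1, a core subunit of the matrix side, came nearest in LPS against Control, at 863, 807 and 848 against 956, 974 and 1070.0 TPM (-0.25 ± 0.09, adjusted p = 0.115), with no overlap. Its LPS+Pilo libraries, at 860.4, 907 and 1017 TPM, overlapped both other groups. The Rieske iron-sulfur protein gene Uqcrfs1 was at 170.4 ± 27.9, 172 ± 17.3 and 164 ± 15.0 TPM in Control, LPS and LPS+Pilo. Uqcr10, a small subunit and the most abundant of the complex, was higher in each LPS+Pilo library (1369.7, 1415 and 1499 TPM) than in any Control library (1160.4, 1322 and 1329 TPM), without passing (0.17 ± 0.12, adjusted p = 0.432).

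Complex IV held the one member that rose. Cox6a2, whose product replaces that of the ubiquitous Cox6a1 in heart and skeletal muscle, stood at 5.07, 6.70 and 8.04 TPM in Control, 9.65, 8.07 and 5.29 TPM in LPS and 14.7, 12.2 and 16.9 TPM in LPS+Pilo. The 3 LPS+Pilo libraries lay above all 6 others, while Control and LPS overlapped. The log2 difference was 1.04 ± 0.22 in LPS+Pilo against Control (adjusted p = 0.0169), 0.87 ± 0.22 in LPS+Pilo against LPS (0.407) and 0.17 ± 0.22 in LPS against Control (0.678). This call ended without LPS+Pilo replicate 1 (adjusted p = 0.0609) or 3 (0.0744). In absolute terms Cox6a2 remained a minor transcript, as its share of Cox6a1 and Cox6a2 together was 0.561% ± 0.124 in Control, 0.704% ± 0.201 with LPS and 1.12% ± 0.142 with LPS+Pilo (SD, n = 3). By annotation Cox6a2 lies on the opposite strand within the locus of the integrin gene Itgad, which was listed at 0 in all 9 libraries.

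The ubiquitous partner Cox6a1 was nearly constant within groups, at 1171, 1163 and 1177 TPM in Control and 1082, 1082 and 1079.7 TPM in LPS, and spread more in LPS+Pilo (1174, 1262 and 1437 TPM). No comparison passed for it. In the other isoform pairs the ubiquitous gene led: Cox4i2, an oxygen-responsive isoform, made up 0.116%, 0.0850% and 0.107% of Cox4i1 plus Cox4i2 in Control, LPS and LPS+Pilo, and the muscle isoform Cox7a1 made up 3.75% ± 2.28, 2.64% ± 1.68 and 2.97% ± 1.47 of Cox7a1 plus Cox7a2. Cox7a1 ranged from 3.60 to 18.3 TPM over the 9 libraries, and its groups overlapped. The catalytic core is surrounded by Cox4i1 (3359 ± 52.1, 3157 ± 210.5 and 3495 ± 255 TPM), Cox5a (491 ± 61.4, 495 ± 44.3 and 487 ± 41.7 TPM) and Cox6b1 (924 ± 57.5, 854 ± 38.8 and 853 ± 41.2 TPM), none of them called. Ndufa4, first assigned to complex I and now to complex IV, was at 242 ± 38.1, 238 ± 30.5 and 221 ± 25.6 TPM. Cox7a2, Cox7a2l, which helps to join complexes III and IV, and Cox8a had no call either. Cox8a was higher in each LPS+Pilo library (1073, 1145 and 1219 TPM) than in any LPS library (794, 1014 and 1019 TPM).

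ATP synthase has a soluble catalytic head, with the alpha and beta subunits from Atp5a1 and Atp5b, and a membrane part with a ring of c subunits. Atp5a1 was at 621 ± 103, 576 ± 54.7 and 565 ± 54.8 TPM and Atp5b at 2763 ± 472, 2459.8 ± 84.7 and 2509.6 ± 78.7 TPM in Control, LPS and LPS+Pilo, with overlapping groups. The genes Atp5g1, Atp5g2 and Atp5g3 encode the same mature c subunit. Of these, Atp5g2 was the least abundant, at 73.0, 65.8 and 64.5 TPM in Control, 60.6, 53.0 and 55.5 TPM in LPS and 51.8, 50.9 and 53.6 TPM in LPS+Pilo. Every treated library lay below every Control library. The fall in LPS+Pilo against Control was -0.37 ± 0.09 (adjusted p = 0.0253), and LPS against Control gave -0.26 ± 0.09 (0.109). Atp5g1 (1195 ± 73.9, 1083 ± 35.3 and 1171 ± 76.2 TPM) and Atp5g3 (978 ± 153, 907 ± 90.7 and 886 ± 30.0 TPM) were not called. The Atp5g2 value is uncertain because its transcript shares 127 bases without a mismatch with the pseudogene Gm10175, listed at 1408 TPM on average against 58.7 TPM for Atp5g2.

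Atp5j2, which encodes the f subunit of the membrane part, stood at 387, 399 and 370.0 TPM in Control, 282, 279 and 352 TPM in LPS and 296, 301 and 282 TPM in LPS+Pilo. Each treated library was lower than each Control library. LPS+Pilo against Control passed (-0.39 ± 0.10, adjusted p = 0.0313), and LPS against Control, in which LPS replicate 3 lay closest to Control, did not (-0.35 ± 0.10, 0.0623; 0.0100 without that library and 0.0301 after quantile normalization). Both calls in this complex were lost when any 1 of the Control or LPS+Pilo libraries was left out, with adjusted p of 0.0567 to 0.0902 for Atp5g2 and 0.0616 to 0.112 for Atp5j2. Median-ratio scaling ended that of Atp5j2 (0.135). Atp5mpl came close to passing in LPS+Pilo against Control, at 491, 431 and 447 against 648, 576 and 523 TPM (-0.35 ± 0.10, adjusted p = 0.0612).

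Mitochondrially encoded members varied more between replicates than nuclear ones, with a median within-group SD of 0.33 on the log2 scale against 0.13 for nuclear members and 0.21 for all genes. No mitochondrial member was called by limma, and at an unadjusted p under 0.05, 2 of 13 were lower in each comparison with Control and 1 was higher in LPS+Pilo against LPS. Of all genes, 10.4% were lower at that cut in LPS and 12.3% in LPS+Pilo against Control, and 3.04% were higher in LPS+Pilo against LPS. The 7 complex I genes are mt-Nd1 to mt-Nd6 and mt-Nd4l, all subunits of the membrane arm. The most abundant, mt-Nd1, was at 1719 ± 143, 1585 ± 273 and 1619.9 ± 152 TPM in Control, LPS and LPS+Pilo. Levels of mt-Nd2 (960.1 ± 378, 926 ± 403 and 849 ± 38.3 TPM), mt-Nd4 (263 ± 11.7, 297 ± 74.9 and 292 ± 5.75 TPM) and mt-Nd5 (303 ± 58.6, 313 ± 41.8 and 248 ± 45.8 TPM) had no call. The largest difference among them was that of mt-Nd3, at 499, 680.4 and 355 TPM in Control, 315, 208 and 511 TPM in LPS and 137, 317 and 154 TPM in LPS+Pilo. All LPS+Pilo libraries lay below all Control libraries, and LPS overlapped both (-1.39 ± 0.39 in LPS+Pilo against Control, adjusted p = 0.0539). The difference passed with LPS replicate 2 (0.0437), LPS replicate 3 (0.0332) or LPS+Pilo replicate 2 (0.0290) omitted, after quantile normalization (0.0431) and with the 2 groups fitted alone (0.0458). The light-strand gene mt-Nd6 showed the same separation, at 411, 419 and 224 against 522, 431 and 428 TPM (-0.44 ± 0.22, adjusted p = 0.277). It overlaps mt-Nd5 by 14 bases on the opposite strand, and no source used here states the strand setting of the counting. For mt-Nd4l, LPS lay below Control at 109, 105 and 61.3 against 239, 157 and 111 TPM (-0.85 ± 0.34, adjusted p = 0.179).

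The single mitochondrial gene of complex III, mt-Cytb, was at 585 ± 90.8, 584 ± 185 and 578 ± 53.6 TPM. The catalytic core of complex IV is encoded by mt-Co1, mt-Co2 and mt-Co3. The first was at 4022 ± 803, 4621 ± 684 and 4394 ± 199 TPM. The value of mt-Co2 was far lower, at 139, 109.9 and 118 TPM in Control, 73.0, 22.1 and 78.5 TPM in LPS and 65.5, 108 and 225 TPM in LPS+Pilo, with no overlap between LPS and Control (-1.25 ± 0.51, adjusted p = 0.180). Levels of mt-Co3 were 710.3 ± 226, 562 ± 362 and 348 ± 157 TPM, and the groups overlapped.

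Near-identical nuclear copies of mitochondrial DNA, annotated as pseudogenes, held most of the signal for several of these genes. A search of the annotated transcripts found 7 such copies of 6 mitochondrial members. The copy of mt-Co2, Gm28661, matched it over 681 bases without a mismatch and was listed at 27.6 times its level, 96.5% of the pair. Copies of mt-Atp6 (Gm10925), mt-Co3 (Gm28437) and mt-Nd4l (Gm10222) also matched without a mismatch and stood at 10.2, 6.65 and 5.66 times their gene. The copy of mt-Nd3, Gm28438, was at 3.15 times the gene and differs from it over 345 bases by 1 base, T3C, counted from 1 at the 5′ end of the gene. The start of both, with that base in capitals, shows how little separates a read of the gene from a read of the copy.
mt-Nd3: atTaacctgtacactgttatcttcatt
Gm28438: atCaacctgtacactgttatcttcatt
For mt-Co1, Gm29216 (99.8% identity over 483 bases) and Gm13340 (97.6%) were listed at 2274 and 219 TPM against 4345 TPM for the gene. The values of these 6 members are therefore uncertain, since no source used here says how reads with several matches were assigned.

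Summing each gene with its copies, a choice made after seeing the data, changed several differences. The separation of mt-Co2 in LPS against Control went from -1.25 to 0.00 ± 0.23 (adjusted p = 0.999), and that of mt-Nd4l from -0.85 to 0.00 ± 0.20 (0.993). In LPS+Pilo against Control, the sum for mt-Nd3 passed at -0.80 ± 0.18 (adjusted p = 0.0221) and that for mt-Co3 at -0.72 ± 0.17 (0.0264). The same held for a nuclear member, Ndufb4, a membrane-arm subunit whose processed pseudogene Ndufb4c matches it over 390 bases and was listed at 5.10 times its level. Alone, Ndufb4 was at 56.6 ± 6.25, 50.7 ± 8.31 and 50.5 ± 3.50 TPM and not called. With Ndufb4c it was at 401 ± 23.5, 279 ± 48.4 and 283 ± 27.5 TPM, which passed in LPS (-0.54 ± 0.13, adjusted p = 0.0307) and in LPS+Pilo against Control (-0.50 ± 0.13, 0.0321). With copies summed, 3 members were called in LPS against Control, 0 in LPS+Pilo against LPS and 10 in LPS+Pilo against Control. Over all genes in that fit, 877, 5 and 1147 of 11249 were called.

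**Figure D3:**
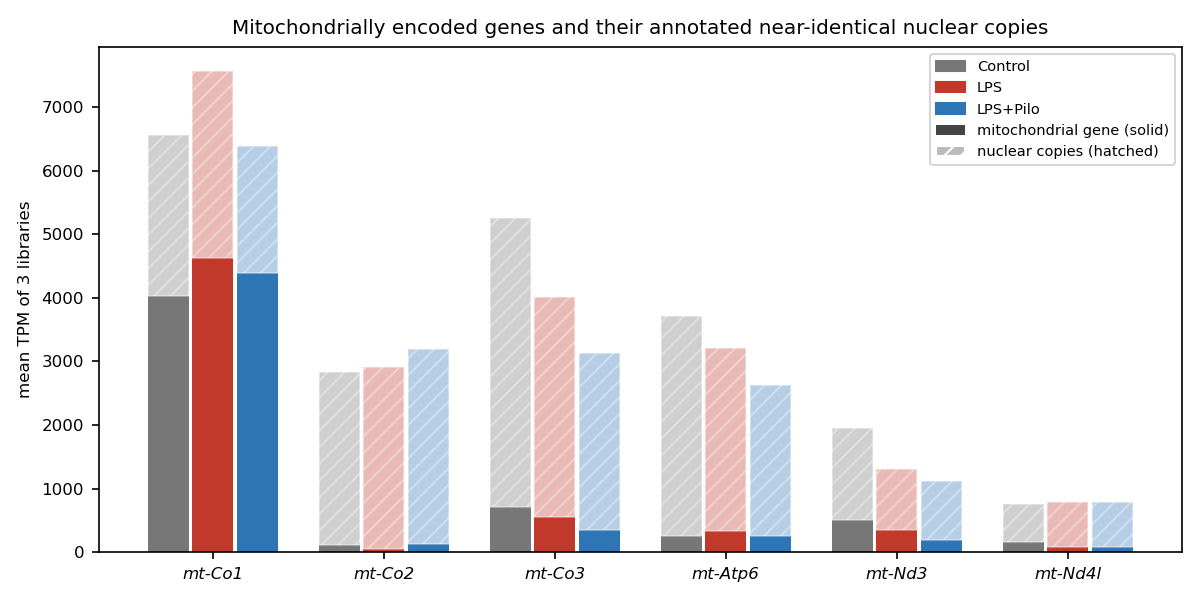
Mean TPM of 3 libraries per group for 6 mitochondrially encoded genes (solid) and their annotated near-identical nuclear copies (hatched, stacked above), by group; spread between libraries is not drawn. For mt-Co2, mt-Co3, mt-Atp6, mt-Nd3 and mt-Nd4l the hatched part exceeds the solid part in all 3 groups, as the copies stood at 3.15 to 27.6 times their genes.

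The most abundant member was mt-Atp8, at 16751, 13078 and 9209 TPM in Control, 10493, 10908 and 10553 TPM in LPS and 8390.0, 11473 and 8599 TPM in LPS+Pilo. Control replicate 1 was the highest library and the groups overlapped (-0.25 ± 0.20 in LPS, adjusted p = 0.506; -0.43 ± 0.20 in LPS+Pilo against Control, 0.236). Its neighbour mt-Atp6, which encodes the proton-channel subunit and lies in the same transcript, was listed at 283 TPM on average against 11050.4 TPM for mt-Atp8, and at 256 ± 91.9, 329.5 ± 67.1 and 263 ± 109 TPM in the 3 groups. The annotated mt-Atp8 is 204 bases long and its last 43 bases, in capitals, are also the first 43 of mt-Atp6.
mt-Atp8, 3′ end: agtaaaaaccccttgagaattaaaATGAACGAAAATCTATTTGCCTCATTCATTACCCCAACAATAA
TPM divide by length, and a read within these bases matches both genes, so the 2 levels cannot be compared as amounts of the shared transcript.

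Summed over genes, nuclear members were lower in every LPS library than in any Control library. Their summed level was 34411 ± 210.4 TPM in Control (mean ± SD, n = 3; 34209 to 34629), 31455 ± 819 with LPS (30688 to 32318) and 33103 ± 543 with LPS+Pilo (32674 to 33714), or 3.44%, 3.15% and 3.31% of all TPM. The 3 ranges did not overlap on the deposited TPM, and LPS+Pilo lay between the other groups. After median-ratio scaling they overlapped, at 31327 to 38007 in Control, 28355 to 35369 with LPS and 31485 to 34216 with LPS+Pilo, and the sums of each nuclear complex overlapped between LPS and Control as well. Complex I had the same pattern of lower sums in both treated groups, at 8700.1 ± 218, 7768 ± 305 and 8057 ± 114 TPM. Complex II was at 869 ± 20.4, 759.6 ± 28.0 and 761 ± 62.2 TPM, complex III at 4304 ± 201, 3981 ± 294 and 4350.5 ± 129 TPM, and complex V at 11386 ± 559, 10350.4 ± 169 and 10601 ± 174 TPM. Complex IV was lower in LPS alone, at 9152 ± 114, 8595 ± 42.4 and 9333 ± 273 TPM, and its LPS+Pilo libraries (9039 to 9577) lay around those of Control (9042 to 9270). Such sums weigh the few most abundant genes most and have no test here. Mitochondrial members summed to 23096 ± 4694, 20837 ± 1511 and 18857 ± 2144 TPM with overlapping groups, and without mt-Atp8 to 10083 ± 1041, 10186 ± 1309 and 9369.8 ± 502 TPM. Their 7 nuclear copies, left out of these sums, reached 15294 ± 2648, 13803 ± 547 and 11825 ± 849 TPM. The LPS+Pilo sums of the copies (10867 to 12483) lay below those of Control (12568 to 17857) and LPS (13325 to 14399). Members and copies together gave 38389 ± 7337, 34640 ± 1903 and 30682 ± 2590 TPM, with overlapping groups.

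**Figure D4:**
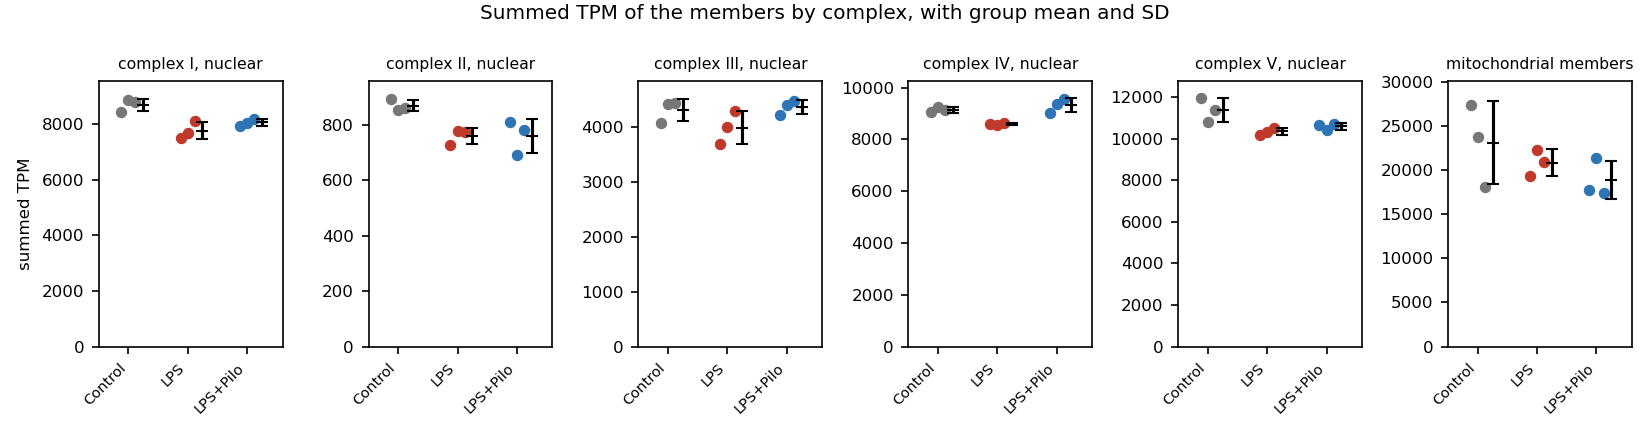
Summed TPM of the nuclear members of each complex and of the 13 mitochondrial members, per library (points) with group mean and SD (bars, n = 3). Every axis starts at 0. The LPS libraries lie below Control for complexes I, II, IV and V, those of LPS+Pilo lie around Control for complex IV, and the mitochondrial sums overlap between groups.

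Assembly factors and regulators that the naming rule leaves out gave a mixed picture. Of 23 complex IV assembly factors tested, 1 rose and 1 fell in LPS, and 1 rose and 2 fell in LPS+Pilo against Control. For these and the lists below, 4.12% of all genes were called higher and 3.64% lower in LPS. In LPS+Pilo against Control these shares were 4.85% and 5.3%, and in LPS+Pilo against LPS 0.00888% and 0.0355%. At an unadjusted p under 0.05, 12.3% of all genes were higher and 10.4% lower in LPS. The unadjusted shares were 11.6% and 12.3% in LPS+Pilo against Control, and 3.04% and 3.72% in LPS+Pilo against LPS. The copper chaperone gene Cox17 stood at 298, 317 and 299 TPM in Control, 380.2, 429.5 and 383 TPM in LPS and 440.4, 374 and 446 TPM in LPS+Pilo, with differences from Control of 0.38 ± 0.09 (adjusted p = 0.0328) and 0.46 ± 0.09 (0.0116). Pet100, which helps assemble complex IV, was at 51.4, 70.5 and 58.9 TPM in Control, 36.1, 38.1 and 39.8 TPM in LPS and 35.2, 39.4 and 27.4 TPM in LPS+Pilo, and fell in both treated groups (-0.64 ± 0.15, adjusted p = 0.0312; -0.81 ± 0.15, 0.00834). Cox20, a chaperone of the mt-Co2 product, fell in LPS+Pilo (-0.65 ± 0.16, 0.0282).

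Among 7 complex III factors, Uqcc3 fell in LPS (-0.40 ± 0.08, adjusted p = 0.0187), at 33.2, 34.4 and 34.9 TPM in Control, 25.1, 26.9 and 24.9 TPM in LPS and 28.7, 28.8 and 29.2 TPM in LPS+Pilo. Limma made no call among 10 further complex I assembly factors, 3 complex II assembly factors, 4 ATP synthase factors or 8 genes of electron carriers and nucleotide exchange. At an unadjusted p under 0.05, 2 of these 25 were higher and 2 lower in LPS, 2 and 4 in LPS+Pilo against Control, and 0 in LPS+Pilo against LPS. Esrra, a nuclear receptor known to drive respiratory genes, was the one call among 7 regulators of mitochondrial biogenesis and rose in LPS+Pilo against Control, at 38.3, 39.8 and 36.9 TPM in Control, 48.0, 47.8 and 44.4 TPM in LPS and 51.0, 59.0 and 56.9 TPM in LPS+Pilo (0.52 ± 0.09, adjusted p = 0.00565). Among 15 genes of mitochondrial DNA maintenance and transcription, Mterf4 rose in the same comparison (0.47 ± 0.13, 0.0460). Of 78 mitochondrial ribosome genes, Mrpl52 rose (0.46 ± 0.12, 0.0409) and Mrpl30 fell (-0.38 ± 0.08, 0.0150), with a list median of -0.01 in LPS and in LPS+Pilo against Control. Pet100 and Esrra in LPS+Pilo against Control held their calls in all 18 alternatives. The other calls on these genes did not. In LPS against Control, Cox17 was lost in 10 (adjusted p of 0.0251 to 0.136), Pet100 in 8 (0.0206 to 0.101) and Uqcc3 in 5 (0.00811 to 0.0968). In LPS+Pilo against Control, Cox17 was lost in 2 (0.00994 to 0.0524), Cox20 in 7 (0.0103 to 0.120), Mrpl30 in 5 (0.0121 to 0.102), Mrpl52 in 10 (0.0358 to 0.134) and Mterf4 in 12 (0.0361 to 0.163). Limma called 0 of the 155 genes in these lists in LPS+Pilo against LPS, with 5 higher and 3 lower at an unadjusted p under 0.05. Microglial markers moved as well, with 2 of 9 called lower and 1 higher in LPS, and 4 lower and 1 higher in LPS+Pilo against Control; their part in the values above was not tested.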

How the data were processed

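RNA was measured in 9 libraries of BV2 cells, 3 per group, grouped by the labelled treatment. The authors deposited 1 table of TPM with 55906 genes, rounded to 2 decimals and summing to the same total in each library within rounding. The submitters' processing notes name build GRCm39 together with STAR 2.7.1a, fastp 0.19.5 and DESeq2 1.24.0. The program behind the TPM, its annotation and its strand setting was not given in the sources used here. Depth is therefore unknown, and precision rests on the 3 libraries per group.

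Symbols, biotypes, overlaps and transcript sequences came by identifier from GENCODE M21 (GRCm38). Genes reaching 1 TPM in 3 or more of 9 libraries were fitted with limma 3.58.1 (R 4.3.3, trend, two-sided) on log2(TPM + 1), 1 mean per group over all 9 libraries, with Benjamini-Hochberg adjustment over all genes and calls at an adjusted p under 0.05. The procedure was tested on simulated data with independent noise for each gene and library. That simulation had no library-wide shifts, so it does not cover the library differences described above. The offset of 1 understates the change of low genes. Copies were found with blastn 2.17.0 (at least 95% identity over 100 bases), and those with at least 80% of their length matched were summed with their gene. Named members were those called, the 3 largest rises and falls without overlap in each comparison (5 TPM or more in the group with the higher mean), and a set list of mitochondrial, catalytic and isoform genes. Ndufb4, Ndufaf5, Ndufb8 and members named for promoter matches, level limits or copies were chosen after their values were seen. The members and lists were chosen with earlier results of these data known. The core and accessory classes, the promoter letters, the summing of copies and the joint omission of Control replicate 1 and LPS replicate 1 were chosen after seeing the data. Other alternatives were a pseudocount of 0.1, no filter, 3 rescalings, fits of 2 groups, a replicate block and each library left out.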

Additional observations from a re-analysis of the deposited data

How the results depend on the processing

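No result changed sign with a call on either side. In LPS against Control, 2 members were called, 8 after quantile normalization (13.5% of all genes, against 7.76%), 1 when the 2 groups were fitted alone (4.32%), 0 without Control replicate 1 and LPS replicate 1 together (added after seeing the data), and 0 to 3 when 1 library was left out. Quantile normalization kept both and added 6. The 0 calls arose without Control replicate 3 and without LPS replicate 2. Over all genes those fits called 414 of 11164 and 466 of 11157, and the joint omission 498 of 11081. The most with 1 library left out was 1020 of 11212, without LPS replicate 3. In LPS+Pilo against Control, 7 members were called, 4 after median-ratio scaling (13.5% of all genes, against 10.2%) and 15 after quantile normalization (15.3%). With 1 library left out the count was 1 to 9, the 1 without LPS+Pilo replicate 1. Over all genes, calls then ran from 642 of 11164 (without Control replicate 3) to 1286 of 11212 (without LPS replicate 3). Without LPS+Pilo replicate 1, 735 of 11183 genes were called. Of the 7, median-ratio scaling lost 4 and added Sdhc, and quantile normalization lost none and added 8. In LPS+Pilo against LPS the count was 0 throughout. The cause of these shifts was not tested, and the smaller fits also rest on fewer samples.

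Median-ratio scaling gave medians in LPS against Control of -0.18 for all members, -0.18 for nuclear ones, -0.19 for complex I and -0.22 for complex V, a nuclear median of 0.0674 in LPS+Pilo against LPS, and a nuclear sum in Control of 35059 TPM; the cause was not tested. With 1 library left out, medians in LPS against Control ran from -0.16 to -0.10 for nuclear members, -0.18 to -0.10 for complex I and -0.13 to -0.04 for complex III (-0.000705 without Control replicate 1 and LPS replicate 1 together), and from -0.15 to -0.11 for complex I in LPS+Pilo against Control. For mitochondrial members in LPS against Control the median ran from -0.23 to 0.04. It was 0.07 without Control replicate 1 and LPS replicate 1 together. In LPS+Pilo against LPS the mitochondrial median was -0.06 with all libraries, and ran from -0.24 (without LPS replicate 1) to 0.04 (without LPS replicate 2). Other class medians in the comparisons with Control also moved by over 1.5 times when a library was left out, as given with them. In LPS+Pilo against LPS, those of all members, nuclear members, mitochondrial members and complexes I, II, III and V changed sign. The complex IV median there, 0.08 with all libraries, ran from 0.03 to 0.12.

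With the replicate block, 2, 0 and 7 members were called in LPS against Control, LPS+Pilo against LPS and LPS+Pilo against Control. Over all 11260 genes, 808, 1 and 1064 were called. Ndufaf8 in LPS (adjusted p = 0.0524) and Atp5j2 in LPS+Pilo against Control (0.0535) were lost, and mt-Nd4l was gained (0.0129 in LPS, 0.00927 in LPS+Pilo against Control). Same-numbered libraries correlated from -0.23 to 0.17 in their deviations from group means, and differently numbered ones from -0.37 to 0.30. The labels state no pairing, and these correlations cannot decide whether the numbers pair the libraries. Without the expression filter Atp5j2 no longer passed (0.0595). Depth is unknown, so low members such as Cox4i2 and Cox6a2 have no counting error.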

Other observations

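The small mitochondrial ribosomal RNA gene mt-Rnr1, which is no member, was listed at 689, 505 and 544 TPM in Control, 837, 686 and 636 TPM in LPS and 842, 936 and 942 TPM in LPS+Pilo. It rose in LPS+Pilo against Control (0.66 ± 0.14, limma adjusted p = 0.0140), with no overlap, and LPS against Control gave 0.32 ± 0.14 (0.203). The large one, mt-Rnr2, was listed at 118, 105 and 94.5 TPM in Control, 104, 87.8 and 89.5 TPM in LPS and 79.1, 103 and 99.2 TPM in LPS+Pilo, with -0.18 ± 0.13 in LPS+Pilo against Control (0.439). Both were chosen after their values were seen, and ribosomal RNA levels depend on how a library was selected for mRNA.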
